A study of Mus musculus with 3 samples.

Results

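The carboxylesterase genes listed as *Ces1*, *Ces2*, *Ces3* and *2210023G05Rik* were examined in ATDC5 cells, a mouse chondroprogenitor line derived from a teratoma, after knockdown (KD) of *Tet1*. The TET1 protein oxidizes methylated cytosine in DNA. The genes were chosen by name from a table of 1524 probe sets that the authors had selected on the intensities of these same arrays, nontarget (NT) against *Tet1* KD. They are 4 of the 1196 genes named in that table and have 1 probe set each, out of 35512 probe sets on the array. All cells were labelled wild-type, were transduced with a lentiviral short hairpin RNA at day 0, and were differentiated with insulin, transferrin and selenium until day 15, when total RNA was taken. There was 1 array with the NT hairpin and 2 arrays with *Tet1* hairpins, Tet1sh1 and Tet1sh2, called hairpin 1 and hairpin 2 here. By the study's methods, puromycin selection of the transduced cells came before differentiation. Transduction therefore preceded the start of differentiation. Nothing in the labels gives a repeat culture of any hairpin, so the spread between the KD arrays mixes hairpin, culture and technical differences, and the NT value has no replicate.

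Because the probe sets were selected on the NT against KD difference, that difference is described here and not tested. An exact permutation test of 1 array against 2 could not give a one-sided p below 0.333 in any case. The selected table names 3 *Tet1* probe sets, and any outside it cannot be seen here. All 3 were lower under both hairpins, with mean log2 folds between -1.28 and -1.01, and none reached 2.5-fold under both. Since that table was selected on this difference, they are no independent check of the KD. The median log2 fold (mean of the KD arrays minus NT) over all 35512 probe sets was -0.09, with a 5th percentile of -0.74 and a 95th percentile of 0.87. The labelled cell type could not be checked independently: of 8 chondrocyte markers only *Col2a1*, *Acan*, *Hapln1* and *Col11a1* are named, in a table selected on the NT against KD difference, with 1427 to 4914 units in NT. With bulk RNA, fewer cells of a type and less RNA per cell cannot be told apart.

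Carboxylesterases are serine hydrolases of the endoplasmic reticulum that cleave ester, amide and thioester bonds. They activate or clear ester drugs, and they hydrolyze lipid esters such as triacylglycerol, cholesteryl ester and retinyl ester. In the mouse they are best known from liver, intestine and adipose tissue, and the family has grown by tandem duplication into neighbouring genes of closely related sequence.

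The names on the array are older than the current nomenclature. By its RefSeq accession, *Ces1* is now *Ces1g*, *Ces2* is now *Ces2c* and *Ces3* is now *Ces1d*, also known as triacylglycerol hydrolase. *2210023G05Rik* is an older symbol of *Ces2g*. The present-day genes *Ces3a* and *Ces3b* are therefore not the gene listed as *Ces3*. The RefSeq annotation of assembly GRCm38.p6 places all 20 carboxylesterase genes, 19 of them protein-coding, on chromosome 8 in 2 groups. The first group runs from *Ces1a* to *Ces5a* and holds 9 of the genes, *Ces1d* and *Ces1g* among them. The second runs from *Ces2a* to *Ces4a* and holds 11, including *Ces2c* and *Ces2g*, and 158 other annotated genes lie between the groups. The 4 members are thus spread over both groups, 2 in each, with other carboxylesterase genes between them.

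The members' promoter sequences are shown because all members were higher after KD and because TET1 acts on methylated CG dinucleotides. RefSeq promoters (GRCm38.p6) matched 3 of the 4 members, *Ces1g*, *Ces2c* and *Ces2g*. The 250 bases before the annotated start are printed for *Ces1g*, on the minus strand at chr8:93337210-93337459, and for *Ces2c*, on the plus strand at chr8:104846818-104847067. Capitals mark matches to the motifs searched, on either strand.
Ces1g: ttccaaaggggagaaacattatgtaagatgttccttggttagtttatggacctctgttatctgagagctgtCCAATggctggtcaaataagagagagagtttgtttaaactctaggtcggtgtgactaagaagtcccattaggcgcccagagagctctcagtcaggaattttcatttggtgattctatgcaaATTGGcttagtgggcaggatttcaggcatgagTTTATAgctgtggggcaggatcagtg
Ces2c: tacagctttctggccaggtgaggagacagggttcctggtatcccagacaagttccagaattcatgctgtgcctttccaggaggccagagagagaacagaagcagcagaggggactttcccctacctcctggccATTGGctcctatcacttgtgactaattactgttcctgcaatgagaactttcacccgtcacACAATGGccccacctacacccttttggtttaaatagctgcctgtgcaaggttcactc

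CCAAT, the motif named for these letters, was present in all 3 member promoters and in 33.8% of all 32851 promoters of the same length. It was present in 10 of the 16 promoters listed for the family, these 3 included. Those 16 promoters belong to 15 genes, since *Ces1b* is listed more than once. *Ces1g* held CCAAT at 179 and, on the opposite strand, at 58 bases before the start, *Ces2c* at 117 and *Ces2g* at 96. In *Ces2c* and *Ces2g* the match lay within the longest run of bases that the pair shares, 13 bases, printed in capitals in the next lines with the bases around it, from the plus strand at chr8:104846938-104846967 and chr8:104961609-104961638.
Ces2c: ctacctcctGGCCATTGGCTCCtatcactt
Ces2g: ctgcctccaGGCCATTGGCTCCagttactt
The longest run shared by *Ces1g* with *Ces2c* was 9 bases and with *Ces2g* 7 bases. The last 122 of the 250 bases of *Ces2g* lie inside its annotated gene span, and the stretch printed for it, with its CCAAT match, lies within them.

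TATAAA, the letters of the TATA element, matched in *Ces1g*, on the opposite strand at 26 bases before the start, in 3 of the 16 family promoters and in 12.4% of all promoters. ACAATGG, the only form of a SOX site searched, matched in *Ces2c* at 57 bases before the start. These exact letters were in none of the other family promoters and in 3.02% of all promoters. No member promoter held TGACNNNGC (the core of the antioxidant response element, 10.2% of all promoters) or GAAANNGAA (the core of the interferon-stimulated response element, 7.13%). None held GGAANTTCC (the only form of an NF-kB site searched, 0.813%), TTGCNNAA (a C/EBP site, 9.56%) or AGGTCA (a nuclear receptor half-site, 14.0%). In the family as a whole, TTGCNNAA matched in 6 of the 16 promoters, GAAANNGAA and AGGTCA in 3 each, and TGACNNNGC and GGAANTTCC in 0. Both promoters of *Ces1b* are counted for TTGCNNAA and for GAAANNGAA, so fewer genes than promoters held these motifs. Overlapping matches were kept and both strands were searched. Each motif was searched only as the letters given, with N as any base. Other forms of the same sites were not searched, so a missing match does not mean a missing site. These are descriptions of letters in a short window and say nothing of factor binding.

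CG dinucleotides were few in the member promoters. *Ces1g* held 2, *Ces2c* held 1 and *Ces2g* held 3, against a median of 6 over all promoters. As few or fewer were found in 29.0%, 18.8% and 37.8% of promoters, so the low counts were common in this table. The 16 promoters listed for the family held from 0 to 4.

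**Figure D1:**
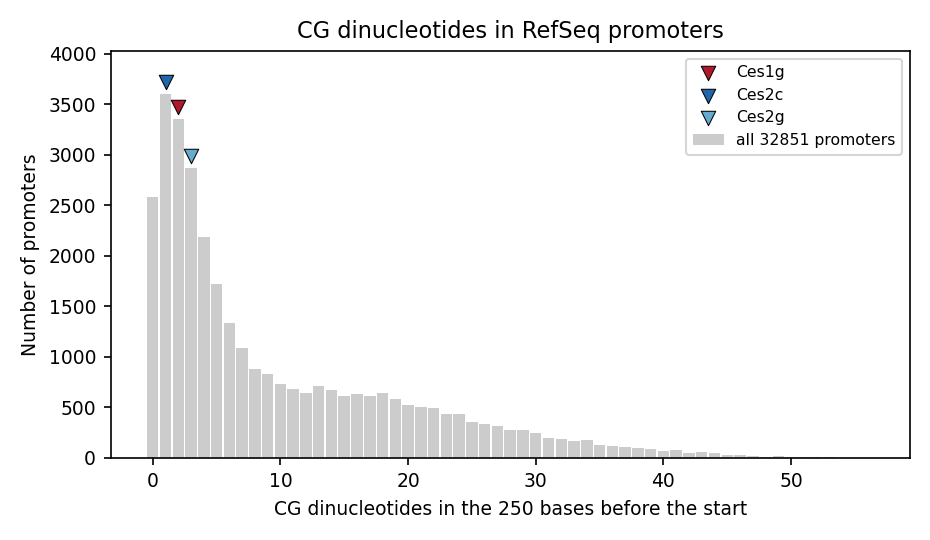
Number of RefSeq promoters (y axis) by their count of CG dinucleotides in the 250 bases before the start (x axis). Triangles mark *Ces2c* at 1, *Ces1g* at 2 and *Ces2g* at 3, on the left side of a distribution whose median is 6.

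All 4 carboxylesterase probe sets were higher in both *Tet1* KD arrays than in NT. Their mean log2 folds ran from 2.08 in *2210023G05Rik* to 3.14 in *Ces3*, and no single log2 fold under either hairpin was below 1.66. Intensities are normalized, linear and in the authors' arbitrary units. Values of different probe sets are not compared with each other, since each probe set has its own brightness.

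*Ces1* (now *Ces1g*), a liver enzyme of lipid ester hydrolysis, measured 169 units in NT, and 1585 units with hairpin 1 against 1001 with hairpin 2. The authors' model-based standard error of the NT value was 18.2 units, 10.8% of it. Both KD values lay far above NT and differed from each other by less than either did from NT. The KD mean was 1293 ± 413 units (SD, n = 2), 7.64-fold over NT, and the log2 fold was 2.89 ± 0.47 (SD over hairpins, n = 2).

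*Ces3* (now *Ces1d*), the triacylglycerol hydrolase of liver and adipose tissue, measured 43.9 units in NT, and 472 units with hairpin 1 against 316 with hairpin 2. The NT value was under 100 units, and it was the least certain of the 4, with an authors' standard error of 8.77 units, 20.0% of the value. Both KD values were several times that level. The KD mean was 394 ± 110 units (SD, n = 2). Its log2 fold of 3.14 ± 0.41 (SD, n = 2), 8.98-fold on the linear scale, was the highest of the 4, but it rests on that dim NT value: with log2(value + 32) it was 2.46, below that of *Ces1* on the same scale, 2.68.

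*Ces2* (now *Ces2c*), an acylcarnitine hydrolase, measured 182 units in NT, and 576 units with hairpin 1 against 1196 with hairpin 2. The NT standard error was 14.1 units. Both KD values were above NT, and they differed from each other by a larger factor than those of any other member. The KD mean was 886 ± 439 units (SD, n = 2), and the log2 fold was 2.19 ± 0.75 (SD, n = 2).

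*2210023G05Rik* (now *Ces2g*), also of the second gene group, measured 109 units in NT, and 427 units with hairpin 1 against 498 with hairpin 2, with an NT standard error of 13.8 units. Its KD values differed by the smallest factor of the 4. The KD mean was 463 ± 50.0 units (SD, n = 2), and the log2 fold was 2.08 ± 0.16 (SD, n = 2).

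**Figure D2:**
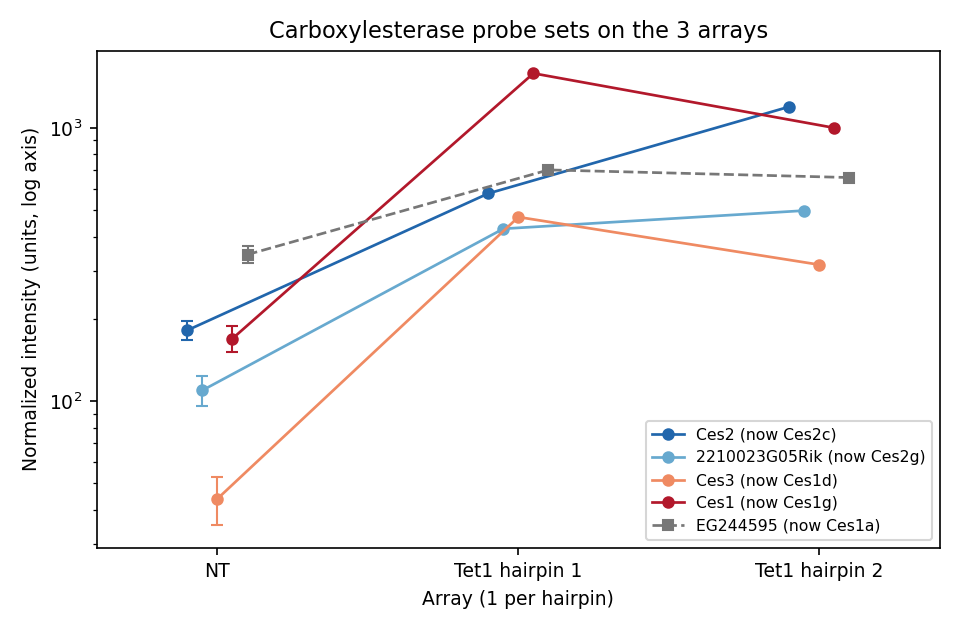
Normalized intensity (y axis, log scale) on the NT, hairpin 1 and hairpin 2 arrays (x axis), with lines joining the values of 1 probe set and error bars on NT showing the authors' standard error. Every member is higher on both KD arrays, from 43.9 to at least 316 units in *Ces3* and from 169 to at least 1001 units in *Ces1*. The dashed grey line is *EG244595*, which lies outside the name rule.

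All 4 members were at least 2.5-fold and over 100 units above NT under both hairpins, the size criteria of the study without its confidence bound. Over all 35512 probe sets, 0.766% were higher by these criteria and 0.237% were lower. Nothing is read from the members' count beside that share, since the table they come from was selected on this contrast, and 56.4% of its 1524 probe sets were higher after KD. Ranked from the highest mean log2 fold of all probe sets, *Ces3* was at 42, *Ces1* at 49, *Ces2* at 147 and *2210023G05Rik* at 174. The smallest difference from NT of any member under any hairpin was 272 units. The members' median log2 fold was 2.54, and it was 2.60 for hairpin 1 alone and 2.64 for hairpin 2 alone.

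One more carboxylesterase in the selected table falls outside the name rule and was noticed after its values were seen. *EG244595*, an older name of *Ces1a*, the first gene of the Ces1 group, measured 344 units in NT, and 702 units with hairpin 1 against 658 with hairpin 2. It was higher under both hairpins but did not reach 2.5-fold under either, with folds of 2.04 and 1.91. Its mean log2 fold was 0.98 ± 0.07 (SD, n = 2), and it ranked at 1400. The other 15 family genes have no name in the table and were not analysed here, so values just outside the authors' selection cannot be given. Probe sets of near-identical family members can share sequence, and the value of each single gene is uncertain to that extent.

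The hairpins were compared with each other, a difference that neither the name rule nor the size criteria for NT against KD measures. Members of the Ces1 group were higher under hairpin 1 and those of the Ces2 group under hairpin 2. The log2 difference, hairpin 2 minus hairpin 1, was -0.66 in *Ces1* and -0.58 in *Ces3*. It was 1.06 in *Ces2* and 0.22 in *2210023G05Rik*. *EG244595*, also of the Ces1 group, had -0.09, close to no difference. Past 1.5-fold between hairpins were 2 of the 4 members, *Ces2* at 2.08-fold and *Ces1* at 1.58-fold, with *Ces3* just under at 1.49-fold. With each array centred on its median, *Ces1* was also at 1.49-fold and only *Ces2* was past, 1 of 4. Over all probe sets 23.0% were past 1.5-fold in either direction, and 16.8% of the 27201 with a KD mean of at least 100 units. The median size of the log2 difference among the latter was 0.26, near that of *2210023G05Rik* and below those of the other 3. With 1 array per hairpin there is no replicate to test this, and a split of 4 genes into 2 pairs was noticed in these values.

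**Figure D3:**
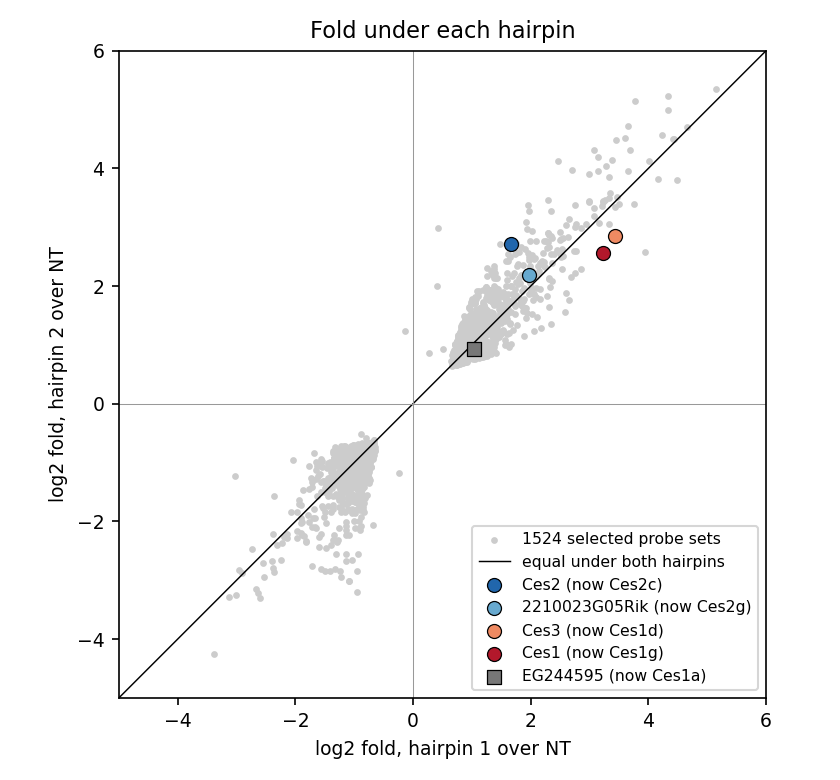
Log2 fold over NT under hairpin 1 (x axis) against hairpin 2 (y axis) for the 1524 selected probe sets (grey) and the carboxylesterases (coloured). *Ces2* at 1.66 and 2.72 and *2210023G05Rik* at 1.97 and 2.19 lie above the line of equal folds, and *Ces3* at 3.43 and 2.85 and *Ces1* at 3.23 and 2.56 lie below it.

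The named probe sets with the most similar pair of folds were listed for each member, by Euclidean distance of the log2 folds under both hairpins among 1326 other named probe sets. With 3 arrays, this likeness rests on 2 numbers per gene. A gene with more than 1 named probe set was entered once for each, so 1 near probe set does not stand for its gene. For *Ces2* the nearest were 1 probe set of *Hmcn1*, at a distance of 0.05, *Phyhipl* at 0.07 and *Il1r1* at 0.18. For *2210023G05Rik* the nearest were *Micall2*, *Gm4992* (listed as EG245575) and *Ssc5d* (listed as A430110N23Rik), at distances of 0.07 to 0.08. *Ces3* and *Ces1* had fewer close neighbours. The nearest to *Ces3* were *Gbp6* (listed as Mpa2l) at 0.23, *Parp14* at 0.35 and *Cmpk2* at 0.48. Those of *Ces1* were *Ifi27l2a* (listed as Ifi27), *Angptl1* and *Isg15*, at 0.46, 0.46 and 0.48. Within 0.5 on the log2 scale, *2210023G05Rik* had 73 probe sets and *Ces2* had 27, against 3 each for *Ces3* and *Ces1*. These are counts of probe sets and not of genes.

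Genes linked to the handling of drugs, lipids and retinoids, regulators included, were taken from 5 lists. The lists held 119 genes in all, of which 17 were named in the selected table. The other 102 were not analysed here. Past the size criteria under both hairpins, 2 of the 17 were higher and 1 was lower, against 0.766% and 0.237% of all probe sets, and since the names come from the authors' selection no share is read from this. None of the 22 neutral lipid and ester hydrolases of the list, such as *Lipe* and *Lpl*, was named in the table.

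Among phase I enzymes of drug metabolism, a list of oxidizing, reducing and hydrolyzing enzymes, 2 of 30 were named. Neither reached 2.5-fold under both hairpins. *Aox1*, an aldehyde oxidase, measured 221 units in NT and 481 and 548 units under hairpins 1 and 2. *Fmo1*, a flavin-containing monooxygenase, measured 4184 units in NT and 8857 and 8351 units under the hairpins. Both were higher on each KD array, with mean log2 folds of 1.22 and 1.04.

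Among conjugating and antioxidant enzymes 7 of 31 were named, 4 with a positive and 3 with a negative log2 fold. None was past the criteria under both hairpins. *Gstm2* and *Gsta1*, which were higher, and *Mgst2*, which was lower, reached 2.5-fold under hairpin 1 alone. The glutathione transferases *Gsta1*, *Gstm2*, *Gsta4* and *Gsta2* had mean log2 folds of 1.18, 1.17, 1.06 and 0.95, each larger under hairpin 1 than under hairpin 2. *Gsta1* and *Gsta2* are near-identical genes whose probe sets may share signal. *Mgst2*, a microsomal glutathione transferase, had a log2 fold of -1.34, *Nat2*, an arylamine acetyltransferase, of -1.01, and *Gsto1* of -0.67.

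Retinoid genes were named for 3 of 18. *Dhrs9*, a dehydrogenase active on retinoids, measured 515 units in NT, and 4075 units with hairpin 1 against 5526 with hairpin 2, a mean log2 fold of 3.20 ± 0.31 (SD, n = 2). *Rarres2*, which encodes chemerin, measured 204 units in NT and 561 and 546 units under the hairpins. These were the 2 genes of the lists that were higher past the criteria. *Crabp2*, a retinoic acid binding protein, was lower, from 718 units to 310 and 244 units, and reached 2.5-fold under hairpin 2 alone.

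Of 18 regulators 5 were named. *Ppargc1a*, a coactivator of oxidative metabolism, was lower past the criteria on both of its probe sets, from 629 units in NT to 122 and 86.5 units on the brighter one. *Cebpd*, *Nr3c1* (the glucocorticoid receptor), *Cebpb* and *Rxra* had mean log2 folds of 1.05, 0.94, 0.74 and 0.69, none of them at 2.5-fold under either hairpin.

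**Figure D4:**
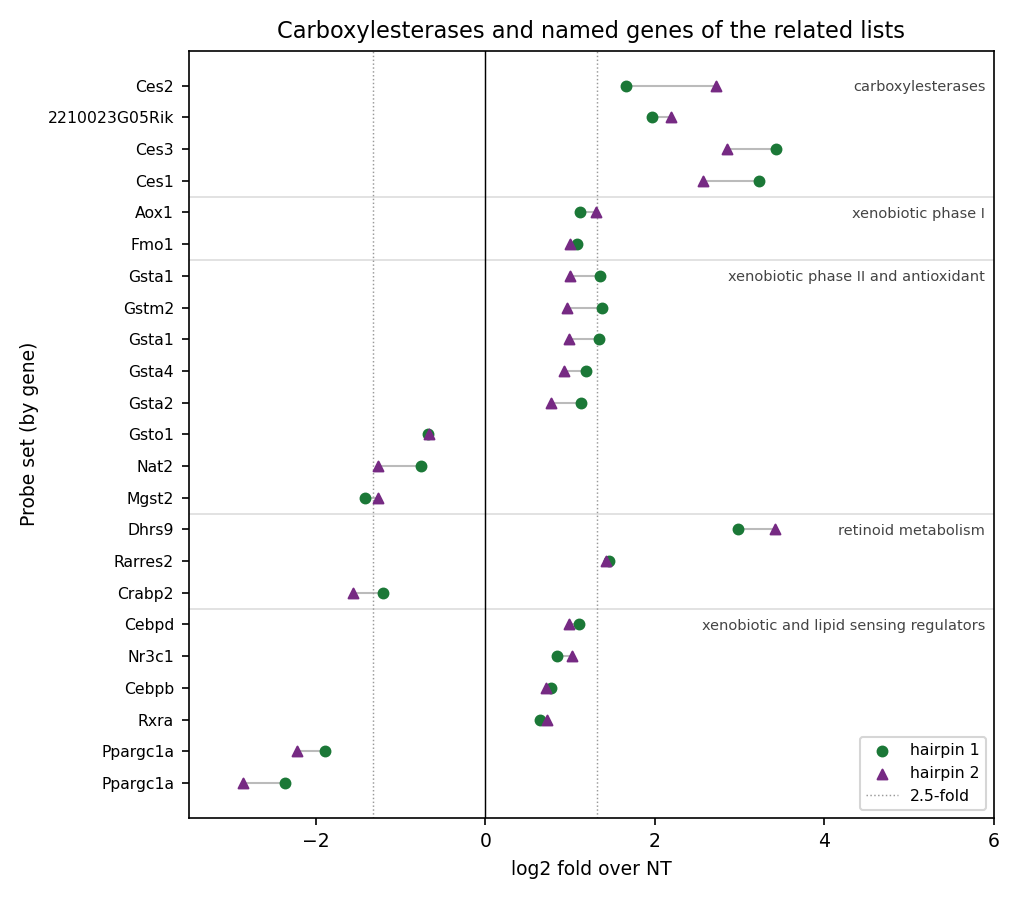
Log2 fold over NT (x axis) under hairpin 1 (circles) and hairpin 2 (triangles) for the carboxylesterase probe sets and each named probe set of the related lists (y axis); dotted lines mark 2.5-fold in either direction. The carboxylesterases lie between 1.66 and 3.43, *Dhrs9* reaches 3.42 and *Ppargc1a* goes down to -2.86.

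Markers of cell types known for carboxylesterases were looked up in the same table. None of 7 hepatocyte markers was named. Of 6 adipocyte markers the 1 named, *Fabp4*, was lower, from 838 units to 179 and 163 units. Of 6 macrophage markers 2 were named and went opposite ways, *Lyz2* from 488 to 1974 and 1400 units and *Cd68* from 4424 to 1458 and 820 units. Of 5 markers of intestinal epithelium the 1 named, *Cdh17*, went from 307 to 163 and 129 units. The 4 named chondrocyte markers had mean log2 folds from -2.92 to -1.17, and 2 of them, *Acan* and *Hapln1*, were lower past the size criteria under both hairpins, against 0.237% of all probe sets. Of 5 fibroblast markers 2 were named, *Dpt* with a mean log2 fold of 1.98, higher past the criteria as 0.766% of all probe sets were, and *Pdgfra* with 1.47, not past them. All these markers come from the authors' selection, so no share is read from them. The part of these other cell types in the carboxylesterase values was not tested, and the unnamed markers were not analysed here.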

How the data were processed

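Total RNA was hybridized to Mouse Gene 1.0 ST arrays. The authors used dChip (version not given in the sources used here) for invariant-set normalization and model-based summaries. The deposited values are therefore linear intensity, and normalization would hide a change common to most genes. The submitters' processing notes name build mm9. The table of selected probe sets, made with a lower bound of 1.5-fold and 100 units, gave gene names and the standard error of NT, and its intensities equalled those of the full table. Its columns with the authors' folds, bounds and differences were not used, nor was a further array that its header implies.

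Here, values under 10 units were set to 10 before log2, with Python 3.11.15, numpy 2.4.6 and pandas 2.3.3. Calls needed 2.5-fold and more than 100 units from NT under each hairpin. Named genes were all members, every named gene of the lists, and the 3 probe sets nearest to each member. Symbols were updated through RefSeq (GRCm38.p6): 1084 by accession, 112 by current symbol, 75 by an older one, and 59 kept. Promoters were the 250 bases before each start. Protein sequences were not used here. The calculations were tested on simulated data without noise, with changes set in bright probe sets only. That checked the code, and not the error of dim probe sets or the spread between arrays. Members and lists were chosen with earlier results of these data known.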

Additional observations from a re-analysis of the deposited data

How the results depend on the processing

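All 4 members passed the size criteria after quantile normalization and with each array scaled to the same median. That they also passed at 1.5-fold, with no minimum difference and with either KD array alone was fixed by their passing the stricter criteria. No log2 fold of a member changed sign under any alternative. For log2(value + 32), for no floor and for either KD array alone this was fixed, since every KD value was above NT. With log2(value + 32) the log2 fold of *2210023G05Rik* was 1.80 and that of *Ces3* 2.46, and after median centring that of *2210023G05Rik* was 2.24. The members' median of 2.54 became 2.24 with log2(value + 32), 2.61 after quantile normalization, 2.71 after median centring, 2.60 to 2.64 with 1 KD array left out, and 2.19 with *EG244595* added, a choice made after seeing the data. Median centring moved the median of all probe sets from -0.09 to 0.08. The differences between hairpins kept their direction under quantile normalization, median centring and log2(value + 32), chosen after seeing the data. The count of members past 1.5-fold between hairpins went from 2 to 1 after median centring, where *Ces1* was at 1.49-fold, and was 2 under the other settings.

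Over all probe sets, the 272 higher and 84 lower became 1186 and 1019 at 1.5-fold and 527 and 177 with no minimum difference. With 1 KD array left out they ranged from 353 to 859 higher and from 175 to 492 lower: without hairpin 1 they were 859 and 492, and without hairpin 2 they were 353 and 175. These wider counts follow from the looser criteria. No paired analysis was possible because there is 1 NT array. The number of arrays limits the precision, and 23.4% of probe sets were under 100 units in NT, *Ces3* among them.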
